A study of Arabidopsis thaliana with 12 samples.

Results

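The genes described here are 10 enzymes that make or break down the osmolytes proline and raffinose in Arabidopsis thaliana, chosen by locus for their role in these pathways, out of 33597 named genes in the count table. They were galactinol synthases GolS1 (AT2G47180), GolS2 (AT1G56600), GolS3 (AT1G09350) and GolS4 (AT1G60470), raffinose synthase RS5 (AT5G40390, listed in the table as SIP1), stachyose synthase STS (AT4G01970), the pyrroline-5-carboxylate synthases P5CS1 (AT2G39800) and P5CS2 (AT3G55610), pyrroline-5-carboxylate reductase P5CR (AT5G14800) and proline dehydrogenase ERD5 (AT3G30775).

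Plants under salt or drought accumulate small compatible solutes that hold water and protect proteins and membranes. Proline is made from glutamate by pyrroline-5-carboxylate synthase, the step that limits the rate, and then by P5CR, and it is broken down again in mitochondria, where proline dehydrogenase takes the first step. Raffinose family sugars start with galactinol synthase, which joins UDP-galactose to myo-inositol, after which raffinose and stachyose synthases pass the galactose on to sucrose and to raffinose. In leaves of this species these pathways are known for their response to salt, drought, cold and heat.

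Messenger RNA of rosette leaves 3 and 4 was sequenced in 4 groups of 3 libraries that the labels call independent biological replicates. Wild-type plants were of the Col ecotype. The other genotype was line #1 of plants that overexpress ERF34, an AP2/ERF family transcription factor, from the CsVMV promoter in the Col background, with GFP fused at the N-terminus, so that the overexpressor is a single line. For salt, leaves detached at 16 DAE (an abbreviation the labels leave unexplained) spent 1 day in 100 mM NaCl in 3 mM MES (pH 5.8), under 16 h light and 8 h dark cycles at 22 °C. Whether mock leaves too were detached and floated is not stated, so detachment and floating cannot be told apart from NaCl in the salt comparisons. The title of the series names salt-induced leaf senescence and salt-responsive genes as its question.

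Wild-type libraries held 14301312 to 18398594 counts each, and overexpressor libraries 10425430 to 12704898. ERF34 stood at 2.96 to 16.7 CPM (reads relative to the TMM-scaled size of the library) in the 6 wild-type libraries and at 769 to 1082 CPM in the 6 overexpressor libraries, the direction the labels give. Summed over 5 mesophyll markers, levels were 18398 to 20533 CPM in mock wild type, 11715 to 13652 CPM in salt wild type, 18786 to 19274 CPM in mock overexpressor and 14524 to 17824 CPM in salt overexpressor, with no marker at 0. The 5 phloem markers summed to 696 to 879, 548 to 597, 702 to 774 and 503 to 613 CPM in the same order. The 4 xylem markers summed to 13.6 to 25.6, 15.6 to 28.1, 8.81 to 16.7 and 21.7 to 30.02 CPM, and 6 guard-cell and epidermis markers to 499.7 to 531, 296 to 498, 473 to 604 and 551 to 734 CPM. The 9 root, flower, meristem and seed markers summed to at most 3.34 CPM in a library, with RHD6, WUS, STM and CRC at 0 in all 12. Mesophyll and phloem sums were thus lower in each salt group, guard-cell and epidermis sums lower with salt in wild type and xylem sums higher with salt in the overexpressor, and their part in the changes below was not tested. In such bulk leaf samples, fewer cells of a type and less RNA per cell cannot be told apart.

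Salt leaves had far less ERD5 RNA than mock leaves in both genotypes, and GolS4 RNA was detected almost only in salt. P5CS1 RNA was higher with salt in both, though its wild-type libraries overlapped. RS5 was higher with salt in wild type, and its rise in the overexpressor (log2 fold change 0.33) did not pass the test. The wild-type rises of P5CS1 and RS5 passed the test only in some of the settings described below. The overexpressor calls of ERD5 and GolS4 were lost without mock overexpressor library 1, and GolS4 was not tested in every setting. Of the 9 genes that passed the filter on low counts, 4 were called in wild type (adjusted p under 0.05, edgeR quasi-likelihood test over all 18886 genes tested), where 41.4% of all genes were called: GolS4, RS5 and P5CS1 were higher, beside 20.3% of all genes, and ERD5 was lower, beside 21.1%. In the overexpressor 3 were called, GolS4 and P5CS1 higher (9.72% of all genes) and ERD5 lower (8.55%), where 18.3% of all genes (3449) were called in either direction. P5CS1 and GolS4 were higher in both genotypes, where 8.35% of all genes were, and ERD5 lower in both, where 7.47% were. GolS4 passed the filter only through salt libraries, and without it the counts were 3 of 8 in wild type and 2 of 8 in the overexpressor. Under the replicate block, 5 of 9 members and 9650 of 18886 genes were called in wild type. In the overexpressor 4 of 9 members and 5327 of 18886 genes were called. Apart from GolS4, these members were RS5, P5CS1, P5CR and ERD5 in wild type, and P5CS1, P5CS2 and ERD5 in the overexpressor. The member counts sit near the background in wild type, nothing is read from them, and the sizes of the changes are described instead. STS was too low to be tested, and GolS3 passed the filter only through overexpressor libraries. GolS4 reached the cutoff of 0.741 CPM in 1 salt wild-type and 2 salt overexpressor libraries, and GolS3 reached it in the 3 salt overexpressor libraries and in 1 mock overexpressor library. The salt comparisons of the genotypes share no library with each other, but each shares libraries with the comparisons between genotypes.

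**Figure D1:**
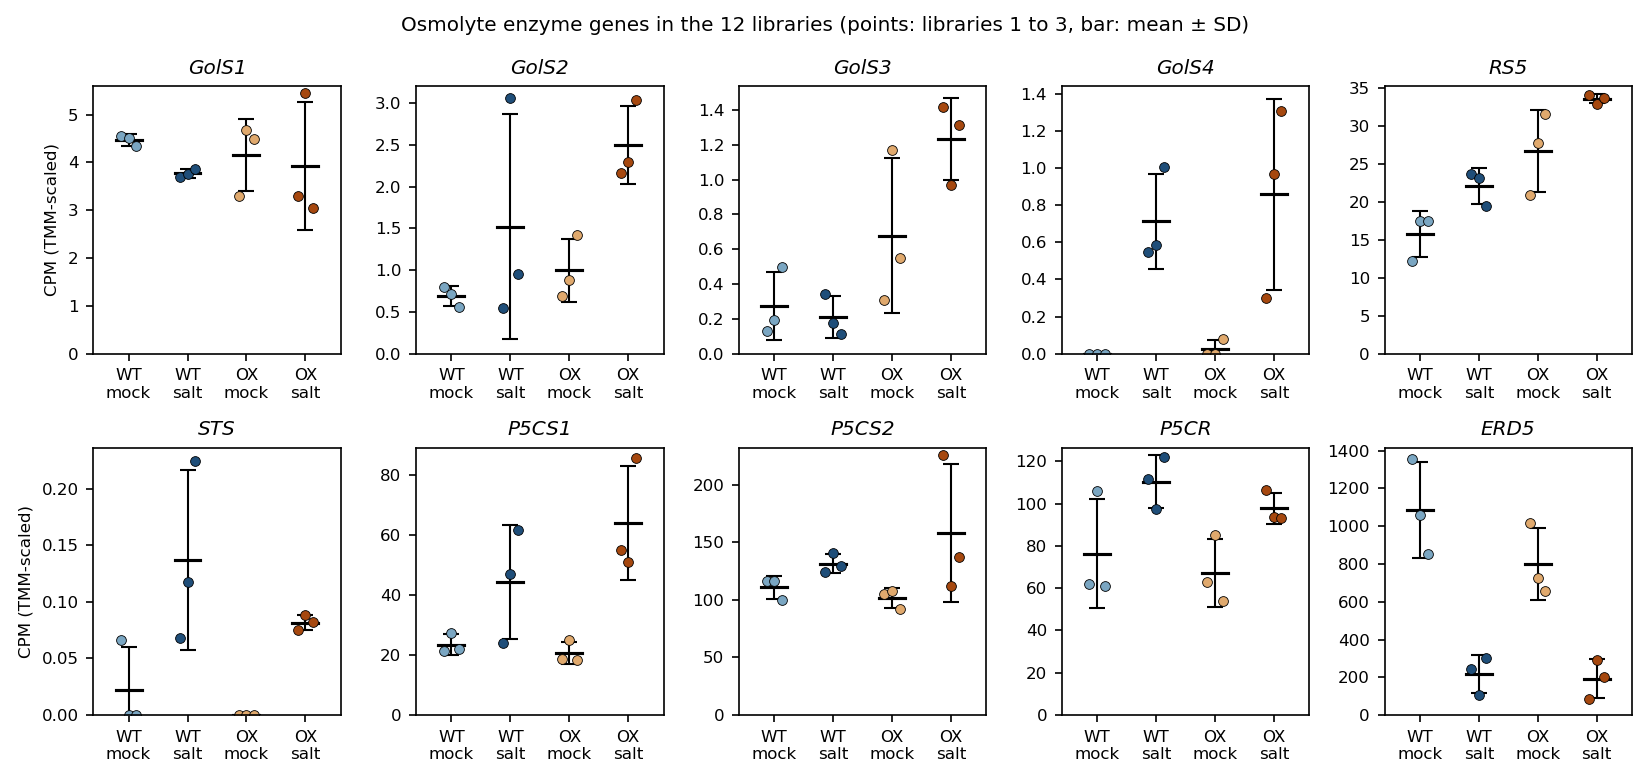
TMM-scaled CPM (vertical axes, each from 0) of the 10 genes in the 12 libraries, in wild type (WT) and the ERF34 overexpressor (OX), mock and salt; points are libraries 1 to 3, short lines are group means and whiskers are SDs. ERD5 falls from between 659 and 1354 CPM in mock to between 84.0 and 304 CPM in salt, and GolS4 is at 0 in 5 of 6 mock libraries.

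ERD5, the proline dehydrogenase (chr3:12448636-12451556, minus strand, TAIR10.1, 4 to 5 exons), was the most abundant member in mock leaves and the 1 member called lower with salt. In mock wild type its level was 1354, 1058 and 851 CPM in libraries 1 to 3, and in salt wild type it was 242, 108 and 304 CPM. In mock overexpressor it was 1017, 725 and 659 CPM, and in salt overexpressor 84.0, 291 and 204 CPM. Every salt library lay below every mock library in both genotypes. Within salt the libraries differed widely, with library 2 lowest in wild type and library 1 lowest in the overexpressor, the highest being 2.81 times the lowest in wild type and 3.47 times in the overexpressor.

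From 1087 ± 253 CPM in mock to 218 ± 100 CPM in salt (SD, n = 3), ERD5 was 4.98-fold lower in wild type (log2 fold change -2.32, SE 0.47, 95% interval -3.36 to -1.28, edgeR adjusted p = 0.00304). In the overexpressor it went from 800 ± 191 to 193 ± 104 CPM, 4.15-fold lower (log2 fold change -2.05, SE 0.47, edgeR adjusted p = 0.0147). Leaving out mock overexpressor library 1 gave -1.85 in the overexpressor with adjusted p = 0.0528, above the threshold, while the wild-type call held under each alternative tried. Among the 18886 genes ordered from the lowest log2 fold change up, ERD5 was number 206 in wild type and 166 in the overexpressor. By counts in a library it ranked between 71 and 159 of all genes in mock, and between 539 and 2416 in salt. It supplied 0.0822% to 0.133% of the counts of a mock wild-type library. The libraries of the genotypes overlapped: the overexpressor differed by a log2 fold change of -0.44 in mock (95% interval -1.43 to 0.55, edgeR adjusted p = 0.917) and by -0.18 in salt (-1.17 to 0.82, adjusted p = 0.856).

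The 250 bases before the annotated starts of ERD5 (chr3:12451557-12451806, minus strand, TAIR10.1) and P5CS1 (chr2:16603320-16603569, minus strand) are shown because these genes head the breakdown and the synthesis of proline and moved in opposite directions. They read 5′ to 3′ toward the gene, from the RefSeq genome, and capitals mark the element ACTCAT, known from proline dehydrogenase genes, here on the opposite strand.
ERD5: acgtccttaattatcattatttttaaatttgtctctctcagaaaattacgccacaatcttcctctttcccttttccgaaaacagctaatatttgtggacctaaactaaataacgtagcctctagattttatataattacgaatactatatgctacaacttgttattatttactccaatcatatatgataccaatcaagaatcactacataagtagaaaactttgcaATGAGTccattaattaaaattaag
P5CS1: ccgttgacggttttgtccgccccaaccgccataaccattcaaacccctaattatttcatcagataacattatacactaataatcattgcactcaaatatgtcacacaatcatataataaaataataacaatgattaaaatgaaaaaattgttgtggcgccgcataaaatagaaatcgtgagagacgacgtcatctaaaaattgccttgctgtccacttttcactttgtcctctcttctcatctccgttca

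The capitals in the ERD5 window begin 24 bases before the start of the gene. ACTCAT on either strand was present in 12.3% of 27443 windows of the same length before protein-coding genes, and ERD5 was the 1 member of 10 that held it. In the P5CS1 window none of the 5 motifs searched was found, which says only that those letters are absent from these bases.

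Of the synthesis genes, P5CS1, the stress-responsive isoform (chr2:16598072-16603319, minus strand, 19 to 21 exons), rose with salt. It stood at 21.1, 27.4 and 21.8 CPM in mock wild type and at 24.0, 47.0 and 61.5 CPM in salt wild type. In the overexpressor it stood at 18.8, 24.9 and 18.4 CPM in mock and at 54.99, 50.8 and 85.6 CPM in salt. The overexpressor groups did not overlap, whereas salt wild-type library 1 lay below mock wild-type library 2. In the overexpressor the rise was 3.09-fold (20.7 ± 3.66 to 63.8 ± 19.0 CPM, SD, n = 3, log2 fold change 1.63, SE 0.32, edgeR adjusted p = 0.00836), and that call held under each alternative tried.

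In wild type the rise of P5CS1 was 1.89-fold (23.4 ± 3.43 to 44.2 ± 19.0 CPM, log2 fold change 0.91, SE 0.31, edgeR adjusted p = 0.0384). The wild-type call was lost in 5 settings: without mock library 1 (adjusted p = 0.110), mock library 3 (0.105), salt library 2 (0.0892) or salt library 3 (log2 fold change 0.60, 0.158), and with only the compared groups fitted (0.0719). The difference between the genotypes in this response was 0.71 on the log2 scale (95% interval -0.27 to 1.69, interaction, edgeR adjusted p = 0.543), so that a larger rise in the overexpressor was not shown.

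P5CS2, the isoform known for basal proline synthesis (chr3:20624020-20629295, minus strand, 16 to 20 exons), was the more abundant synthase in each library. Its level was 116, 117 and 99.7 CPM in mock wild type, 125, 141 and 129 CPM in salt wild type, 105, 108 and 92.0 CPM in mock overexpressor, and 226, 112 and 137 CPM in salt overexpressor. Salt libraries lay above mock libraries in each genotype, though the gap was narrow and salt overexpressor library 1 stood apart from libraries 2 and 3. The log2 fold change with salt was 0.25 in wild type (95% interval -0.23 to 0.72, edgeR adjusted p = 0.388) and 0.64 in the overexpressor (0.16 to 1.12, adjusted p = 0.0651). The overexpressor value passed the threshold with the replicate number as a block (adjusted p = 0.0499), with DESeq2 (0.0372) and without salt overexpressor library 2 (0.0273). Without salt overexpressor library 1, the high one, it fell to 0.29 (adjusted p = 0.172).

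P5CR, which completes the synthesis (chr5:4785960-4787996, minus strand, 7 exons), was at 62.2, 106 and 61.0 CPM in mock wild type and at 112, 97.3 and 122 CPM in salt wild type. In the overexpressor it was at 62.7, 85.3 and 54.0 CPM in mock and 106, 93.9 and 93.3 CPM in salt. Library 2 was the highest mock library in both genotypes and overlapped salt in wild type. The log2 fold changes were 0.53 in wild type (95% interval 0.03 to 1.04, edgeR adjusted p = 0.0854) and 0.54 in the overexpressor (0.03 to 1.05, adjusted p = 0.127), neither past the threshold. With the replicate block the wild-type value was 0.58 (adjusted p = 0.0489), and without mock wild-type library 2 it was 0.84 (adjusted p = 0.00709).

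Set per kilobase of exon, the RNA ratio of ERD5 to P5CS1 moved by more than the spread between libraries. It combines the changes of both genes given above, and no enzyme or proline was measured. ERD5 was 87.5, 52.8 and 53.3 times as abundant as P5CS1 in mock wild type and 13.8, 3.14 and 6.75 times in salt wild type. The same ratio was 74.1, 39.8 and 49.0 in mock overexpressor and 2.09, 7.84 and 3.25 in salt overexpressor. The lowest mock ratio, 39.8, was thus well above the highest salt ratio, 13.8. ERD5 over the sum of P5CS1 and P5CS2 was 9.06 to 12.7 in mock wild type, 0.748 to 2.11 in salt wild type, 7.08 to 10.6 in mock overexpressor and 0.388 to 2.34 in salt overexpressor. The ratio below 1 in salt wild-type library 2 and salt overexpressor library 1 means that the synthases together had more RNA per kilobase there than the dehydrogenase.

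P5CS1 made up 14.5%, 18.01% and 17.004% of the RNA of both synthases per kilobase in mock wild type and 15.3%, 23.8% and 30.9% in salt wild type. The overexpressor gave 14.3%, 17.8% and 15.7% in mock and 18.6%, 29.8% and 36.9% in salt. Library 1 had the lowest share in each salt group, and its share in salt wild type fell within the mock range. The coding sequences of P5CS1 and P5CS2 were 86.3% identical over the aligned bases, with a longest shared run of 53 bases, so that reads within such runs could be assigned to either or dropped, depending on the counting.

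**Figure D2:**
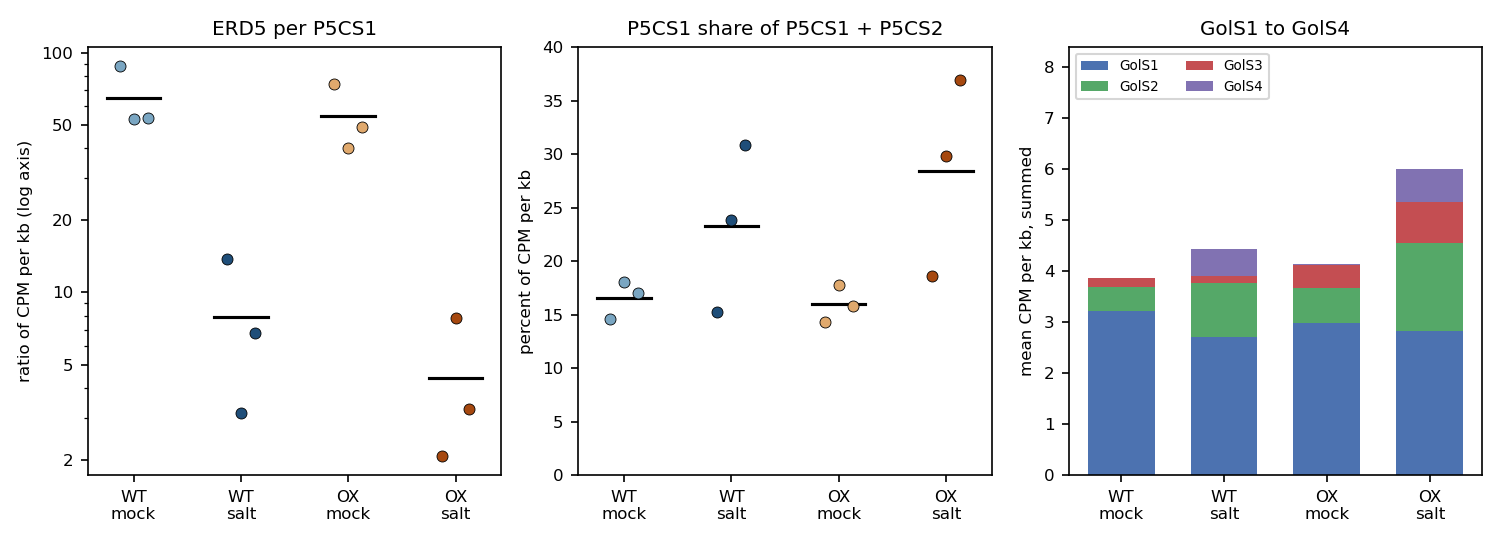
Left, ERD5 over P5CS1 in CPM per kilobase (log axis); middle, P5CS1 as a percent of P5CS1 plus P5CS2 per kilobase; points are libraries and lines are means. Right, group means of GolS1 to GolS4 in CPM per kilobase, stacked from 0, where salt wild type and salt overexpressor show a GolS4 layer.

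The galactinol synthases, which commit myo-inositol to the raffinose pathway, were all low. GolS4 (chr1:22278975-22280593, minus strand, 4 exons) was detected almost only in salt. Its counts were 0, 0 and 0 in mock wild type and 8, 10 and 18 in salt wild type, 0, 0 and 1 in mock overexpressor and 4, 11 and 16 in salt overexpressor. These correspond to 0.715 ± 0.256 CPM in salt wild type and 0.860 ± 0.516 CPM in salt overexpressor (SD, n = 3). Zero counts in mock wild type allow a level of up to 0.0641 CPM, taking 3 counts over the group, a limit of counting error only.

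The mean of GolS4 in salt wild type was 11.1 times that limit, with its 3 libraries at 0.546, 0.588 and 1.01 CPM. In the overexpressor the ratio of salt to mock was 30.2, with a counting interval of 5.04 to 1231. Because GolS4 entered the test through the salt libraries, its edgeR adjusted p (0.00294 in wild type and 0.0164 in the overexpressor) is given as a description and not as support for the rise. With no filter on low counts it was 0.00250 and 0.0160, and without mock overexpressor library 1 it was 0.0648 in the overexpressor. With only the compared groups fitted, GolS4 was not tested in either genotype. The fitted log2 fold changes of this gene depend on the prior count and carry no size. No difference of GolS4 between genotypes in salt was detected (log2 fold change 0.24, 95% interval -1.05 to 1.52, edgeR adjusted p = 0.846).

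GolS3, known in this species as a cold-responsive galactinol synthase (chr1:3019639-3021443, plus strand, 3 to 4 exons), was the 1 member called between the genotypes. Its counts were 2, 3 and 8 in mock wild type, 5, 3 and 2 in salt wild type, 4, 12 and 7 in mock overexpressor and 19, 11 and 16 in salt overexpressor. In salt the overexpressor libraries, at 1.42, 0.968 and 1.31 CPM, lay above those of wild type, at 0.341, 0.177 and 0.112 CPM. The gap was 5.85-fold (log2 fold change 2.55, SE 0.59, 95% interval 1.25 to 3.85, edgeR adjusted p = 0.0394), where 4.39% of all genes were called in either direction, 2.07% as higher and 2.32% as lower. GolS3 entered the test only through overexpressor libraries, so this call is a description and not support for the difference; with no filter on low counts the adjusted p was 0.0464. The call rests on few reads and was lost without salt wild-type library 2 (adjusted p = 0.135) or 3 (0.148) and without salt overexpressor library 1 (0.0740), 2 (0.0687) or 3 (0.112), and with only the compared groups fitted (0.0739).

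The windows before GolS3 (chr1:3019389-3019638, plus strand) and GolS4 (chr1:22280594-22280843, minus strand) are shown because GolS3 was the member called between genotypes and GolS4 the member detected almost only in salt; they are read like those above, with capitals for CCGAC, the core of the dehydration-responsive element, and ACGTG, the core of the abscisic acid responsive element, on either strand.
GolS3: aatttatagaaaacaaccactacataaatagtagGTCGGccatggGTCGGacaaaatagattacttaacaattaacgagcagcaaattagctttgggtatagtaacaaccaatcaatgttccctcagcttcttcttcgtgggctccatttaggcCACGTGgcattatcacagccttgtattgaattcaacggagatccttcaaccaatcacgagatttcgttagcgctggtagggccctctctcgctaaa
GolS4: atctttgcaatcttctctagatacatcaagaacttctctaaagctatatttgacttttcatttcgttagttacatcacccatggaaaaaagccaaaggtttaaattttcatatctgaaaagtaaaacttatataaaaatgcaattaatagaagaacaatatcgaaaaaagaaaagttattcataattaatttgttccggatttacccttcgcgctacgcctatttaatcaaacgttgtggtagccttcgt

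GolS3 held CCGAC at 2 places, 216 and 205 bases before the start, and ACGTG on both strands of a single site, 96 and 95 bases before it. GolS4 held none of the 5 motifs. CCGAC occurred in 12.0% of the 27443 windows and ACGTG in 22.9%.

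GolS1 (chr2:19368798-19370478, minus strand) and GolS2 (chr1:21207537-21209635, plus strand), each of 4 exons and known for induction by drought, salt and heat, gave no call in any comparison. GolS1 was at 4.56, 4.51 and 4.34 CPM in mock wild type, 3.69, 3.77 and 3.87 CPM in salt wild type, 3.29, 4.69 and 4.49 CPM in mock overexpressor and 3.29, 5.46 and 3.04 CPM in salt overexpressor. The wild-type groups were tight and did not overlap, with salt below mock by a log2 fold change of -0.24 (95% interval -0.74 to 0.26, edgeR adjusted p = 0.414), and the overexpressor groups overlapped. In the annotation GolS1, GolS4, P5CS1 and P5CS2 each overlap a gene on the opposite strand, and if strand was not used at counting their reads cannot be told apart from those of the partner.

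GolS2 was at 0.793, 0.709 and 0.558 CPM in mock wild type and at 0.546, 3.06 and 0.953 CPM in salt wild type. It was at 0.689, 0.878 and 1.42 CPM in mock overexpressor and at 2.17, 2.29 and 3.04 CPM in salt overexpressor. Each salt overexpressor library lay above each mock overexpressor library, while in wild type salt library 2 stood well above the others. The log2 fold changes were 1.15 (95% interval -0.08 to 2.38, edgeR adjusted p = 0.122) and 1.32 (0.11 to 2.52, adjusted p = 0.119). Without salt wild-type library 2 the former was 0.15 (adjusted p = 0.805) and without library 1 it was 1.53 (adjusted p = 0.0336), and with only the compared groups fitted the adjusted p of the latter was 0.0496.

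Per kilobase, GolS1 was the main galactinol synthase in mock, at 83.7%, 84.0% and 81.5% of the sum of GolS1 to GolS4 in wild type and 77.7%, 71.1% and 69.7% in the overexpressor. In salt its share was 72.5%, 50.2% and 65.2% in wild type and 47.1%, 57.2% and 35.6% in the overexpressor. The salt shares lay below the mock shares within each genotype. The summed level of the 4 genes was 3.82 to 3.91 CPM per kilobase in mock wild type, 3.65 to 5.39 in salt wild type, 3.04 to 4.74 in mock overexpressor and 5.01 to 6.86 in salt overexpressor. The sum in wild type overlapped between treatments and that in the overexpressor did not. Coding sequences of GolS2 and GolS3 were 83.3% identical with a longest shared run of 26 bases, and other pairs of the 4 were 70.7% to 74.2% identical.

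RS5, the raffinose synthase known to act in stressed leaves (chr5:16161449-16165453, plus strand, 5 exons), rose with salt in wild type, and its other salt and genotype differences had the same sign without passing the test. It was at 12.2, 17.5 and 17.5 CPM in mock wild type, 23.7, 23.2 and 19.4 CPM in salt wild type, 20.9, 27.7 and 31.5 CPM in mock overexpressor and 34.1, 32.9 and 33.7 CPM in salt overexpressor. The groups overlapped in none of the 4 comparisons. In wild type the rise with salt was 1.40-fold (15.7 ± 3.03 to 22.1 ± 2.35 CPM, log2 fold change 0.49, SE 0.18, edgeR adjusted p = 0.0453). That call was lost with upper quartile scaling (adjusted p = 0.0820), with only the compared groups fitted (0.0635), and without mock wild-type library 1 (0.162) or 3 (0.0546) or salt wild-type library 1 (0.117) or 2 (0.111).

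In the overexpressor the log2 fold change of RS5 with salt was 0.33 (95% interval -0.06 to 0.72, edgeR adjusted p = 0.214). Against wild type, the overexpressor was at 26.7 ± 5.38 CPM in mock, a log2 fold change of 0.76 (95% interval 0.37 to 1.15), with an unadjusted p of 0.00127 and an edgeR adjusted p of 0.191. In salt it was at 33.6 ± 0.589 CPM, a log2 fold change of 0.60 (0.22 to 0.99, edgeR adjusted p = 0.0782). DESeq2 called both of these differences, with adjusted p = 0.0180 in mock and 0.0365 in salt. In mock, edgeR called 0.101% of all genes (0.0635% higher, 0.0371% lower) and 0 members, with RS5 as the 1 member at an unadjusted p under 0.05 among 1386 such genes. RS5 was also the 1 tested member with every mock overexpressor library above every wild-type one, where 8.26% of all genes were and 7.46% were below. In salt, RS5 was separated in that way, where 13.5% of all genes were above and 12.4% below. GolS3 was separated as well, but it passed the filter only through overexpressor libraries. Its separation is therefore a description and is not set beside those shares.

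The window before RS5 (chr5:16161199-16161448, plus strand) is shown because RS5 was the member whose libraries separated in each comparison; capitals mark CCGAC on the opposite strand, 152 bases before the start.
RS5: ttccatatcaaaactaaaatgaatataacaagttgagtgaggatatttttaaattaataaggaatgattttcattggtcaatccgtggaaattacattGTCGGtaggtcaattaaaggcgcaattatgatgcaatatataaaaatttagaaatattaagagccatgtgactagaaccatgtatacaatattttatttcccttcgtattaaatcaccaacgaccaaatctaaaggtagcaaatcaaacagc

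STS, a synthase of stachyose best known from seeds (chr4:853922-857401, minus strand, 4 exons), had counts of 1, 0 and 0 in mock wild type, 1, 2 and 4 in salt wild type, 0, 0 and 0 in mock overexpressor and 1, 1 and 1 in salt overexpressor. The ratio of salt to mock in wild type was 6.62 with a counting interval of 0.850 to 298, and that of the overexpressor to wild type in salt was 0.574 (0.0958 to 2.52). By CPM every salt library lay above every mock library in both genotypes. In wild type this rested on library size, since library 1 had 1 count in each treatment. With 0 mock counts no ratio was taken in the overexpressor. STS was not tested, and at this depth no difference was shown.

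Per kilobase, the order of mean levels in mock wild type was ERD5 (500.1 CPM per kilobase), P5CR (52.9), P5CS2 (39.9), P5CS1 (7.89), RS5 (5.26), GolS1 (3.21), GolS2 (0.478), GolS3 (0.177), STS (0.00682) and GolS4 (0). In that order STS, with 1 count in the group, and GolS4, with 0, could not be told apart. The mean ± SD ranges of P5CR and P5CS2 (52.9 ± 17.8 and 39.9 ± 3.51) overlapped. Both genes were read in the same libraries, and their order within libraries was not tested. In salt overexpressor the order was ERD5 (88.8), P5CR (67.8), P5CS2 (56.9), P5CS1 (21.5), RS5 (11.2), GolS1 (2.82), GolS2 (1.74), GolS3 (0.798), GolS4 (0.637) and STS (0.0253). There the ranges of ERD5 (88.8 ± 47.9), P5CR (67.8 ± 5.08) and P5CS2 (56.9 ± 21.5) overlapped. Those of GolS1 (2.82 ± 0.956) and GolS2 (1.74 ± 0.328) did too, as did those of GolS3 (0.798 ± 0.153) and GolS4 (0.637 ± 0.382), with the same limit.

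Read by overlap in place of the fitted test, 2 of the 8 tested genes other than GolS4 had every salt wild-type library above every mock library, where 25.6% of all genes did, and 2 had every one below, where 26.7% did. In the overexpressor 5 of the 8 were above, where 18.7% of all genes were, and 1 was below, where 18.3% were. These 5 were GolS2, RS5, P5CS1, P5CS2 and P5CR. The interaction of genotype and salt called 0 genes (0%) of 18886 with edgeR as fitted here, with 2580 genes and 0 members at an unadjusted p under 0.05. Under the replicate block edgeR called 379 genes, with RLE scaling 5 and with no filter 8, and DESeq2 called 659, in each case with 0 members. The interaction intervals were wide, from -1.14 to 1.67 for ERD5, -0.71 to 0.39 for RS5 and -0.60 to 3.25 for GolS3 on the log2 scale.

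**Figure D3:**
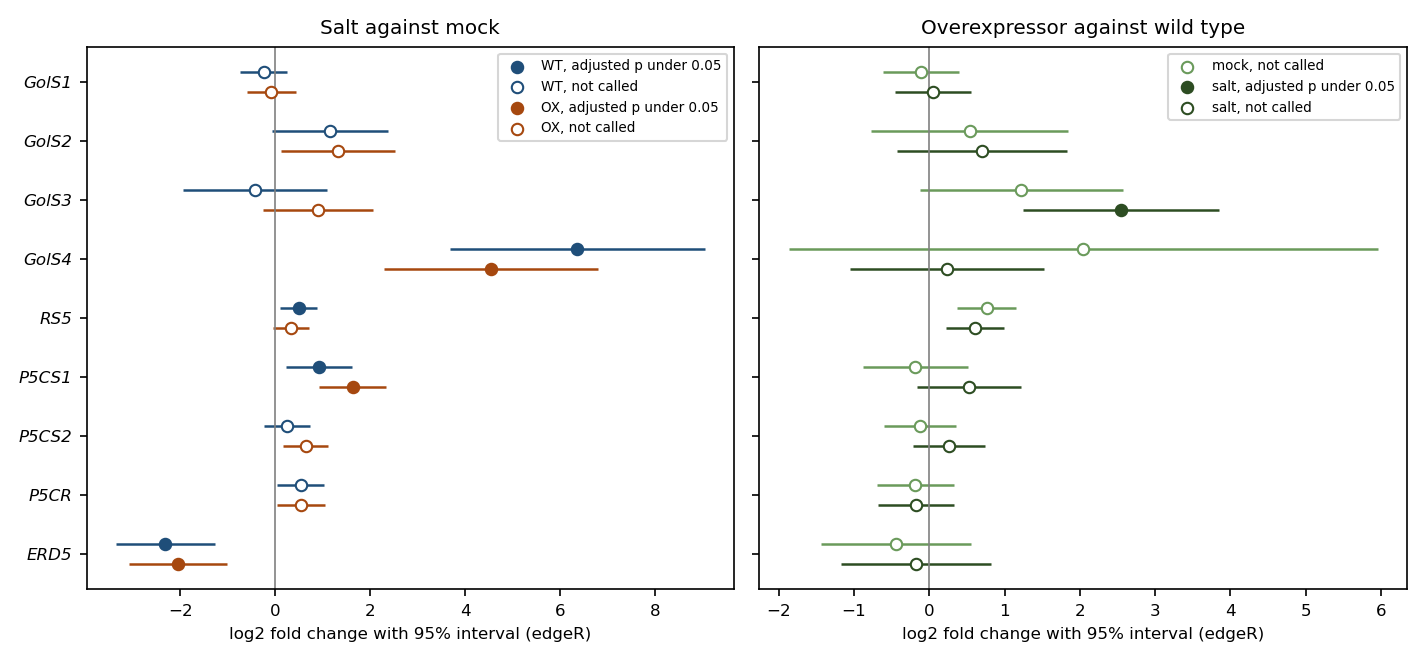
Log2 fold changes (horizontal axis) with 95% intervals from edgeR for the 9 genes tested, salt against mock in each genotype on the left and overexpressor against wild type in each treatment on the right; filled points have an adjusted p under 0.05. ERD5 lies near -2 in both genotypes, and GolS3 in salt is the only filled point on the right; the position of GolS4 on the left depends on the prior count.

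Among all 10 windows, ACGTG was found in 4 (GolS1, GolS3, STS and P5CR), CCGAC in 5 (GolS2, GolS3, RS5, P5CS2 and P5CR) and GAANNTTC, the core of the heat shock element, in 2 (GolS1 and GolS2), the last beside 9.55% of all windows. GCCGCC, the GCC box known as a site of ERF proteins, was in none of the 10 and in 1.87% of all windows. Both strands were searched, and the letters of ACGTG can overlap on the strands of a single site. Of the genes called with salt, ERD5 held ACTCAT, RS5 held CCGAC, and P5CS1 and GolS4 held none of the 5. The matches describe these bases and no binding was measured.

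Other genes of the same pathways were read from lists of 52 genes, of which 38 were tested. In wild type 8 of the 38 rose and 14 fell with salt, and in the overexpressor 3 rose and 6 fell, where 20.3% of all genes rose and 21.1% fell in wild type, and 9.72% rose and 8.55% fell in the overexpressor. The median log2 fold changes over the 38 genes were -0.14 and -0.09.

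Of the 4 proline transporters, 2 rose with salt in each genotype and 0 fell, beside 20.3% of all genes higher in wild type and 9.72% in the overexpressor. LHT1, an amino acid importer that also carries proline, rose from 102 ± 6.81 to 417 ± 27.8 CPM in wild type (log2 fold change 2.04, edgeR adjusted p = 4.53e-05) and from 124 ± 24.9 to 281 ± 49.8 CPM in the overexpressor (1.18, adjusted p = 0.00258). PROT2, a proline and compatible solute transporter, rose from 17.5 ± 0.825 to 38.1 ± 7.00 CPM in wild type (log2 fold change 1.12, edgeR adjusted p = 5.91e-04) and by 0.58 on the log2 scale in the overexpressor (adjusted p = 0.0395), the latter lost in 6 of 13 alternatives. PROT1 and PROT3 were not called.

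On the breakdown side, P5CDH, the enzyme after proline dehydrogenase, overlapped in each comparison, at 87.5, 86.8, 87.9 and 85.8 CPM in group means for mock wild type, salt wild type, mock overexpressor and salt overexpressor. AT5G38710, to which RefSeq gives the product name of ERD5, was at 37.0 ± 19.6, 39.1 ± 16.2, 21.2 ± 4.63 and 9.30 ± 5.53 CPM in the same order and was not called. In salt its overexpressor libraries lay below those of wild type, with a log2 fold change of -2.08 (edgeR adjusted p = 0.0526). ARGAH2, an arginase that yields ornithine, rose in wild type from 138 ± 8.37 to 367 ± 53.4 CPM (log2 fold change 1.41, edgeR adjusted p = 4.29e-04) and in the overexpressor by 0.67 (adjusted p = 0.0416), the latter lost in 8 of 13 alternatives. Its paralog ARGAH1 fell by 0.39 and 0.44 on the log2 scale (adjusted p = 0.0173 and 0.0235), lost in 2 and 5 of 13 alternatives.

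Of 9 bZIP factors of groups C and S1, which are known for activating proline dehydrogenase, 4 could be tested, and these were all of group C; 2 fell in wild type and 1 in the overexpressor, where 21.1% and 8.55% of all genes fell. BZIP10 fell from 62.6 ± 10.9 to 39.1 ± 0.812 CPM in wild type (log2 fold change -0.68, edgeR adjusted p = 0.00513) and by 0.50 in the overexpressor (adjusted p = 0.0443, lost in 7 of 13 alternatives). BZIP9 fell by 0.65 in wild type (adjusted p = 0.0418, lost in 4 of 13). BZIP63 had non-overlapping libraries and log2 fold changes of -1.36 and -1.31, which were not past the threshold (adjusted p = 0.0646 and 0.119). BZIP25 had log2 fold changes of 0.33 in wild type (79.9 ± 10.3 to 100.3 ± 15.5 CPM, adjusted p = 0.127). Its overexpressor value was -0.09 (adjusted p = 0.748), and neither was called.

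The 5 factors of group S1, BZIP1, BZIP2, BZIP11, BZIP44 and BZIP53, were listed at 0 in all 12 libraries. In the deposited table each stands next to an entry for a conserved upstream reading frame (CPuORF), also at 0, and 62 of the 64 CPuORF entries in the table were at 0 in each library. Whether reads of these 5 genes were left out at counting was not tested, so no level is given for them. PEAMT (XPL1), of the glycine betaine route, stood beside such an entry at 0 as well, and GOLS6 and UGE5 were listed at 0 without such a neighbour.

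Of 6 tested genes of the raffinose synthase family and alpha-galactosidases, 2 rose and 2 fell in wild type, and 1 fell in the overexpressor, beside 20.3% of all genes higher and 21.1% lower in wild type and 8.55% lower in the overexpressor. RS2 (AT3G57520), of the raffinose synthase family and known as an alpha-galactosidase that acts on raffinose, fell from 1526 ± 407 to 321 ± 63.9 CPM in wild type (log2 fold change -2.25, edgeR adjusted p = 6.48e-04) and from 1064 ± 205 to 190 ± 83.0 CPM in the overexpressor (-2.49, adjusted p = 0.00194). RS6, known as dark-inducible DIN10, fell by 1.61 on the log2 scale in wild type (edgeR adjusted p = 0.04998, lost in 7 of 13 alternatives). AGAL1, an alpha-galactosidase, rose in wild type by 1.27 (37.1 ± 3.84 to 89.5 ± 14.7 CPM, adjusted p = 3.71e-04) and in salt was lower in the overexpressor (log2 fold change -0.94, adjusted p = 0.0218, lost in 5 of 13 alternatives). The other galactinol synthases GOLS5, GOLS6, GOLS7 and GOLS10 were too low to be tested.

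For the supply of myo-inositol, a substrate of galactinol synthase, 1 of 6 genes rose and 4 fell in wild type, and 1 fell in the overexpressor, against the same shares of all genes. MIPS3, an inositol-3-phosphate synthase, fell by 1.54 in wild type (74.9 ± 15.02 to 25.8 ± 4.39 CPM, edgeR adjusted p = 2.32e-04) and by 1.21 in the overexpressor (65.9 ± 2.65 to 28.4 ± 6.75 CPM, adjusted p = 0.00380). MIPS1 rose by 0.81 in wild type (adjusted p = 0.0426) and MIPS2 fell by 0.67 (adjusted p = 0.0451), lost in 6 and 7 of 13 alternatives. For UDP-galactose, 2 of 4 genes tested fell in wild type and 1 in the overexpressor, where 21.1% and 8.55% of all genes fell. UGE1, an epimerase, fell by 1.32 in wild type (adjusted p = 0.00106) and by 0.73 in the overexpressor (adjusted p = 0.0435, lost in 5 of 13), and UGE2 fell by 0.71 in wild type (adjusted p = 0.0116).

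For sucrose, which accepts the galactose, 2 of 7 genes tested rose (20.3% of all genes) and 3 fell (21.1%) in wild type, and 1 fell in the overexpressor (8.55%). SPS4F, a sucrose phosphate synthase, fell from 423 ± 114 to 92.6 ± 19.2 CPM in wild type (log2 fold change -2.19, edgeR adjusted p = 2.11e-04) and from 395 ± 108 to 145 ± 27.2 CPM in the overexpressor (-1.45, adjusted p = 0.00669). SUS1, a sucrose synthase, rose by 0.92 in wild type (adjusted p = 0.00419) and SPS2F by 0.63 (adjusted p = 0.0290, lost in 6 of 13 alternatives). The ALDH10A8 and ALDH10A9 dehydrogenases of the glycine betaine route were not called in any comparison.

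**Figure D4:**
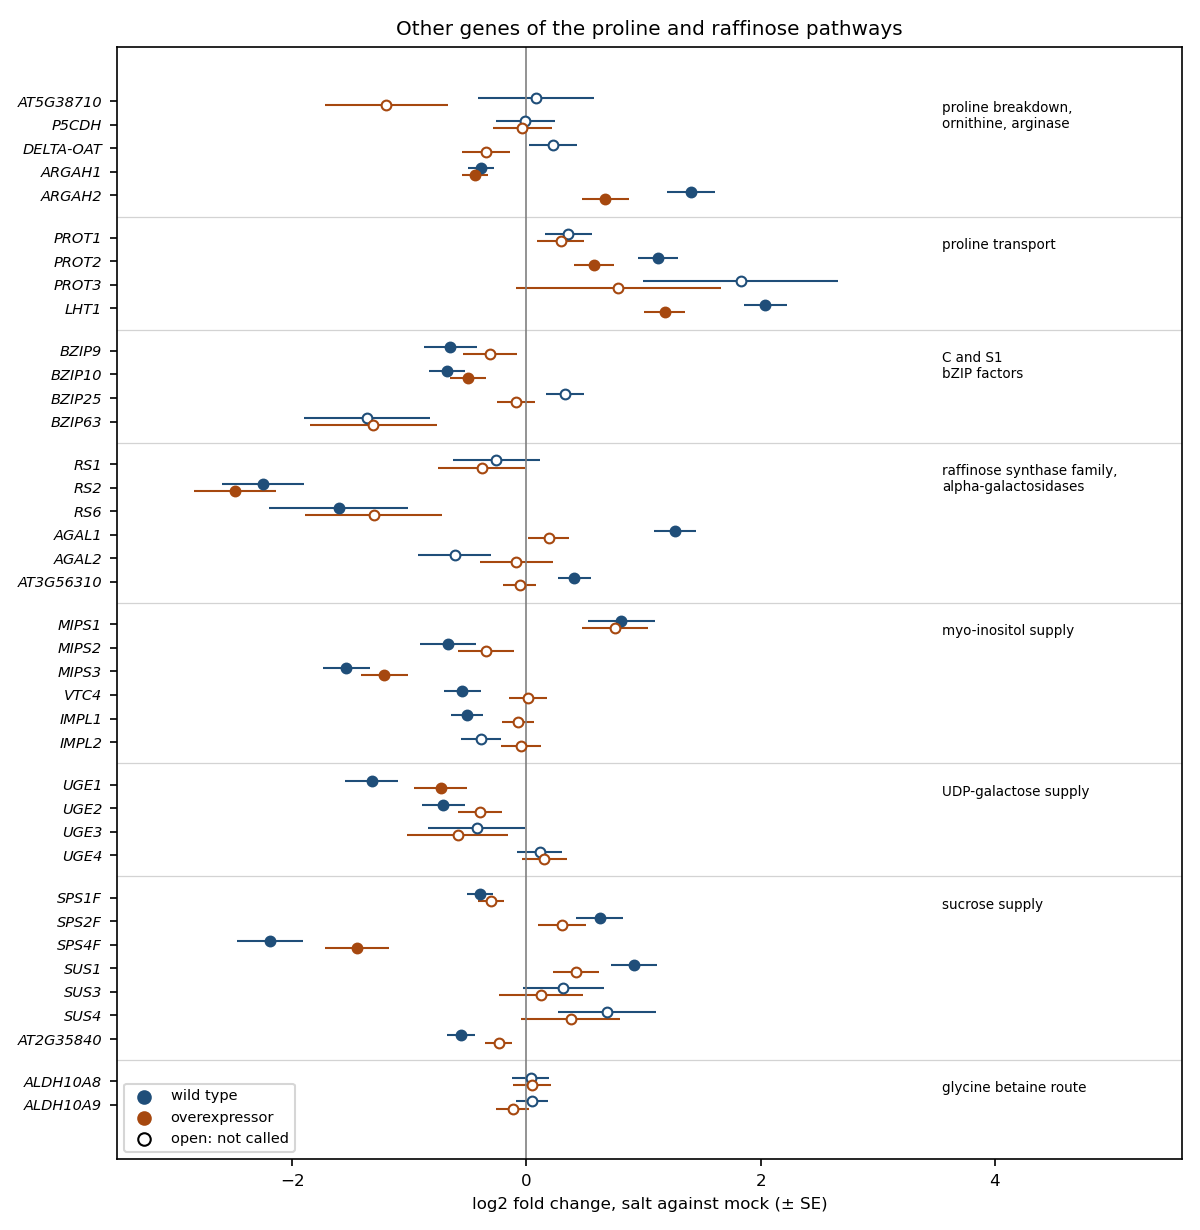
Log2 fold changes with salt (horizontal axis, points with ± SE) of the 38 tested genes of the surrounding pathways, grouped by list, in wild type and in the overexpressor; filled points have an adjusted p under 0.05. LHT1 lies at 2.04 and 1.18, and RS2 and SPS4F lie below -1 in both genotypes.

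The genes whose log2 CPM followed each member most closely over the 12 libraries are given as a description, since many genes share the separation of mock and salt. ERD5 was most like AT1G62480 (Pearson r 0.986) and AT3G47070 (0.978), and P5CS1 most like AT1G58230 (0.919) and UVH1 (0.912). P5CS2 was most like AT1G23180 (0.927) and AT2G42130 (0.910), and P5CR most like ATKRS-1 (0.968) and ANNAT4 (0.961). RS5 was most like PRA1.B6 (0.962) and AT5G05820 (0.952), and GolS4 most like AT1G34050 (0.988) and AT4G09100 (0.985). GolS1 followed MBF1C (0.844) and AT2G29500 (0.841), GolS2 followed FRO3 (0.891) and RRS1 (0.866), and GolS3 followed HB16 (0.930) and GATA4 (0.924).

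GolS3 and GolS4 passed the filter only through groups in which they were high, which bears on any likeness to genes raised there. Among the 7 other tested members the closest positive pair was GolS2 and P5CS1 (r 0.741). P5CS1 was number 97 in the order of likeness to GolS2 among 18885 genes, and GolS2 was number 947 in the order of likeness to P5CS1. ERD5 ran against P5CS2 (r -0.777), P5CS1 (-0.749), GolS2 (-0.718), P5CR (-0.627) and RS5 (-0.616). In the order of likeness to ERD5 these were number 17251, 16827, 16388, 15212 and 15071 of 18885, so many other genes ran against it further. GolS1 was the 1 member that ran with ERD5 (r 0.463, number 5738).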

How the data were processed

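The authors deposited whole-number counts per gene, not normalised, and TMM-normalised signal values whose columns equal the counts times 1 constant per library, so the signal was not used for tests. Per the labels' protocols, poly(A) RNA (2 µg, integrity number above 7.8) went into strand-specific libraries. TopHat, Cufflinks and TAIR10 are named in the submitters' processing notes, and whether counting used strand is not given in the sources used here. Entries without a gene name (7 per library, 0.382% to 0.897% of counts) were left out.

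Counts were fitted with edgeR 4.0.16 (R 4.3.3; filterByExpr, TMM, robust quasi-likelihood, 4 groups in 1 model, 8 residual degrees of freedom), with Benjamini-Hochberg adjustment over 18886 genes. The test was also run on simulated counts with independent libraries, in which the changed genes were not low in counts. That run does not cover low counts, changes in a large share of genes or same-numbered libraries that deviate together. CPM use TMM-scaled library sizes, and per-kilobase values use the union of RefSeq exons. Counting intervals are at 95% and a limit at 0 is 3 counts; both cover counting error only. Alternatives were other scalings, DESeq2 1.42.0, no filter, a replicate block, only the compared groups, and leaving out each library; applying them to the pathway genes was chosen after seeing the data. Same-numbered libraries deviated together in wild-type salt against mock (r 0.306 to 0.401), overexpressor salt against mock (0.132 to 0.273) and the genotypes in mock (0.270 to 0.730). They did not do so throughout for the genotypes in salt (-0.0248 to 0.526). The main fit held groups only, so its p-values are not paired, and the numbers entered only through the replicate block.

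Promoter windows are 250 bases before the gene start in RefSeq TAIR10.1 (27443 protein-coding windows), and identities are from global alignment of coding sequences. From each pathway list, up to 3 called genes per comparison with at least 1 CPM were named, with others added after their values were seen. The members, lists and tests were chosen with earlier results of these data known.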

Additional observations from a re-analysis of the deposited data

How the results depend on the processing

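The salt calls of ERD5 in wild type and P5CS1 in the overexpressor held under each alternative tried. Members called with salt in wild type numbered 4, and 1 with only the compared groups fitted; the other settings gave 3 to 5, and leaving out 1 library gave 2 to 5 (genes 5921 to 7628). With salt in the overexpressor, leaving out 1 library gave 1 to 4 members and 1519 to 2836 genes; 5327 genes were called with the replicate block and 2227 with only the compared groups, against 3449. For the genotypes in mock, DESeq2 called 1 member and 200 genes, against 0 and 19; only the compared groups gave 4 genes, and leaving out 1 library gave 0 members and 3 to 11 genes. For the genotypes in salt, against 1 member and 829 genes, DESeq2 called 2 members and 1799 genes, the replicate block 2 members and 2344 genes (RS5 added, adjusted p = 0.0448), and only the compared groups 0 members and 13 genes; leaving out 1 library gave 0 to 1 members and 45 to 1017 genes. For the interaction, with 0 genes, RLE scaling gave 5, no filter 8, DESeq2 659, the replicate block 379 and leaving out 1 library 0 to 73, with 0 members throughout. The causes were not tested. Upper quartile scaling moved the wild-type split with salt from 3833 higher and 3981 lower to 3311 and 4534, that in the overexpressor from 1835 and 1614 to 1663 and 1806, and that between genotypes in salt from 390 and 439 to 441 and 352. The replicate block, whose numbers pair the libraries in all but the comparison of genotypes in salt, changed no other member call than P5CR in wild type, P5CS2 in the overexpressor and RS5.

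Directions turned only for differences that were not called, which include the large but poorly counted ones of GolS4 between genotypes in mock (log2 fold change 2.05) and in the interaction (-1.81). The interaction of P5CR, 0.01, was -0.016 with RLE scaling, -0.015 with DESeq2 and -0.010 with the replicate block. Leaving out 1 library gave log2 ranges that reach or cross 0 for GolS3 (-0.90 to 0.31) with salt in wild type, GolS1 (-0.39 to 0.071) with salt in the overexpressor, P5CR (-0.39 to 0.13), GolS1 (-0.20 to 0.046) and GolS4 (0.00 to 2.57) between genotypes in mock, ERD5 (-0.60 to 0.18), P5CS2 (-0.081 to 0.46), GolS1 (-0.25 to 0.21) and GolS4 (-0.21 to 0.66) between genotypes in salt, and P5CR (-0.30 to 0.21), GolS2 (-0.22 to 1.17), ERD5 (-0.16 to 0.62), GolS4 (-2.33 to 0.24) and GolS1 (-0.15 to 0.31) for the interaction. Depth limits GolS3, GolS4 and STS, with at most 46 counts in any group. With 3 libraries a group (biological coefficient of variation 0.249 in common), intervals of the genotype differences stayed wide.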
